A study of Homo sapiens with 23 samples.

Results

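Cells of the C-33A line were transfected with a synthetic mimic of the microRNA miR-23b-3p, and their RNA was set against that of C-33A cells transfected with a negative control oligonucleotide. The comparison holds 6 of the 23 samples of the series, 3 with 100 nM of the mimic and 3 with 100 nM of negative control n#1, and its members are all 61217 genes listed in the authors' deposited table of this comparison. C-33A is an established line from a human cervical carcinoma that carries no papillomavirus, and it is labelled as squamous. The same mimic at the same dose was given to CaSki, a papillomavirus-positive cervical line (3 mimic and 3 control samples), and C-33A also received mimics of miR-124-3p (2 samples) and miR-218-5p (3 samples), which are compared with the same C-33A control group. The sample titles number the samples of a group and repeat these numbers across groups, without saying whether a number stands for a separate culture or for a day shared between groups. The deposited tables carry no numbers, so nothing was paired. The p-values measure only a scatter of these samples, which may be technical. In C-33A with this mimic that scatter is pooled over genes and is not that of each gene. Values per sample are not analysed here, and each gene is given by its log2 fold change (mimic over control), an error and its average level over the 6 libraries as log2 CPM, the log2 of its reads scaled to library size. None of the 12 squamous markers checked reached an average log2 CPM of 0 in C-33A, where the highest stood at -1.12, so the squamous label is not borne out by these markers.

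A microRNA is a short RNA loaded into an Argonaute protein, which it guides to messenger RNAs that pair with its seed, the bases near its 5' end. Bound messengers are translated less and lose their poly(A) tail, after which they are decapped and degraded. miR-23b is made from a cluster shared with miR-27b and miR-24-1 inside an intron of AOPEP, and it is known for roles in cell migration, glutamine use and TGF-beta signalling in epithelial tumours.

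The mature sequence shows which letters a target must hold. The capitals mark the seed, bases 2 to 8, which miR-23b-3p shares with miR-23a-3p and miR-23c; the opposite arm of the same hairpin, miR-23b-5p, has a different seed. Sequences are from RefSeq (GRCh38.p14), and miR-23b-3p lies on chromosome 9 at chr9:95085265-95085287, plus strand.
hsa-miR-23b-3p: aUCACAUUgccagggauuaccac
hsa-miR-23a-3p: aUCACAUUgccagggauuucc
hsa-miR-23c: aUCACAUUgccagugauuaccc
hsa-miR-23b-5p: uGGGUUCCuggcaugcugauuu
A site in a messenger is therefore the word AATGTGA. It is called an 8mer where an A follows it and a 7mer-m8 where it does not; a 7mer-A1 pairs only with positions 2 to 7 and is followed by an A, and a 6mer pairs with positions 2 to 7 only.

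In C-33A, 19 genes fell with the mimic (0.031% of 61217 genes) and 10 rose (0.0163%), at a deposited false discovery rate (FDR) under 0.05. In RNA from whole cultures, fewer cells of a type and less RNA per cell cannot be told apart. All 29 genes were among the 15222 whose average log2 CPM was at least 0, here called measured genes, of which the calls make up 0.125% (falls) and 0.0657% (rises). Of these measured genes 47.6% lay below 0 and 52.4% above, and 350 lay below 0 and 294 above 0 at an unadjusted p under 0.05 (2.3% and 1.93%). The median log2 fold change of the measured genes was 0.01.

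**Figure D1:**
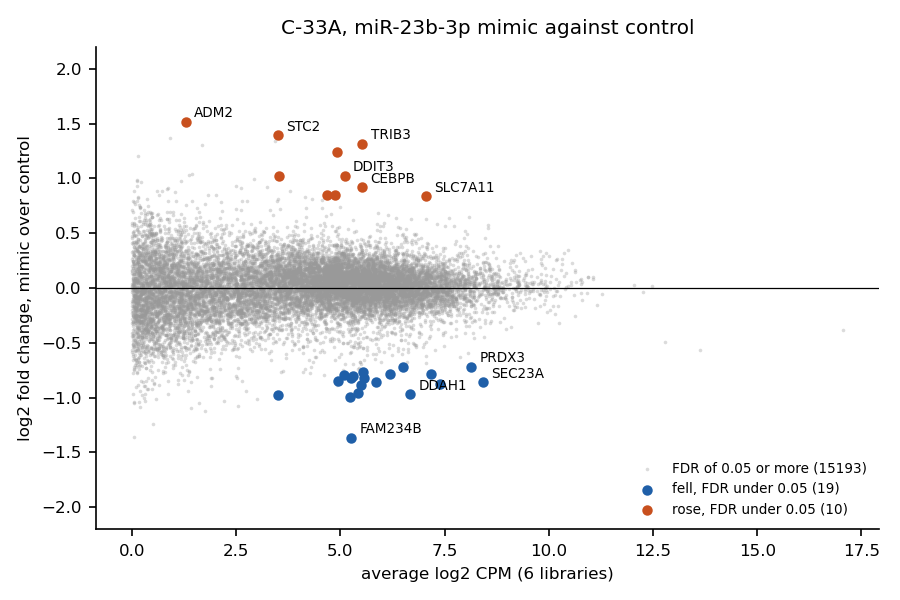
Log2 fold change (mimic over control) against average log2 CPM over the 6 libraries for the 15222 measured genes of C-33A; blue points are the 19 genes that fell and orange points the 10 that rose. FAM234B lies lowest of the genes that fell at -1.36, and ADM2 highest of those that rose at 1.52.

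FAM234B, which codes for a membrane protein, fell the most: its log2 fold change was -1.36 in the authors' deposited table (adjusted p = 8.03e-09), a level in mimic-treated cells of 38.8% of that in control cells. The 95% interval of that log2 fold change, from the recovered standard error, ran from -1.73 to -1.0. Its 3' UTR holds 3 8mers, and the nearest to the stop codon begins at base 253 of that 3' UTR.

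The sites of the genes that fell are shown because the falls can be set against them. Each line gives 30 bases of the sense strand (GRCh38, GENCODE 29) with the match in capitals, 7 letters for a 7mer-m8 and 8 for an 8mer. The FAM234B sites lie at chr12:13080883-13080890, chr12:13083334-13083341 and chr12:13083406-13083413 (plus strand), that of B4GAT1 at chr11:66345725-66345732 (minus), DDAH1 at chr1:85321195-85321201 (minus), SMS at chrX:21994610-21994616 (plus), EIF4EBP2 at chr10:70423733-70423740 (plus), and those of SEC23A at chr14:39032820-39032827 and chr14:39032592-39032599 (minus), all in 3' UTRs.
FAM234B site 1: gtggatcgtttggaAATGTGAAtctcttaa
FAM234B site 2: aaactaatcccctgAATGTGAAttgctatc
FAM234B site 3: gaagcactatttaaAATGTGAActgttata
B4GAT1: gtaagcttcgtacaAATGTGAAgtattaat
DDAH1: taatgaattatcaaAATGTGAttaatccca
SMS: accccccccattagAATGTGAtttttgttc
EIF4EBP2: ttttctgccacaaaAATGTGAAtagttcag
SEC23A site 1: caatagtaatgataAATGTGAAcatttttg
SEC23A site 2: cgcagctgacaaaaAATGTGAAatttccac

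The falls include several enzymes. B4GAT1, which helps to build the glycan of dystroglycan, fell by 0.99 on the log2 scale in the authors' deposited table (95% interval -1.35 to -0.63, adjusted p = 0.000534). DDAH1, which breaks down methylarginines that block nitric oxide synthase, fell by 0.97 (95% interval -1.30 to -0.63, adjusted p = 0.00015) in the authors' deposited table. SMS, the enzyme that makes spermine, fell by 0.88 (95% interval -1.23 to -0.53, adjusted p = 0.00383) in the authors' deposited table. MSMO1, a demethylase of cholesterol synthesis, fell by 0.72 (adjusted p = 0.0493) and ETNK1, an ethanolamine kinase of phospholipid synthesis, by 0.78 (adjusted p = 0.0113) in the authors' deposited table. B4GAT1 carries 1 8mer, ETNK1 3 8mers, and DDAH1, SMS and MSMO1 1 7mer-m8 each.

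EIF4EBP2, a repressor that binds the cap-binding factor eIF4E, fell by 0.87 in the authors' deposited table (95% interval -1.2 to -0.55, adjusted p = 0.00111). SESN3, a sestrin that restrains mTORC1, fell by 0.82 (adjusted p = 0.0129) in the authors' deposited table and holds 5 matches, 2 of them 8mers. SEC23A, a subunit of the COPII coat of vesicles leaving the endoplasmic reticulum, fell by 0.86 (95% interval -1.19 to -0.54, adjusted p = 0.00133) in the authors' deposited table. RAB8B, a small GTPase of vesicle traffic, fell by 0.86 (adjusted p = 0.00383) and carries 2 8mers in the authors' deposited table and GENCODE 29. PRDX3, the mitochondrial peroxiredoxin, fell by 0.72 (adjusted p = 0.0376) in the authors' deposited table, with 1 8mer. TMEM150C fell by 0.97 (adjusted p = 0.0399) and C2orf69 by 0.78 (adjusted p = 0.0182) in the authors' deposited table, and each has 3 matches. The unnamed gene ENSG00000287001 fell by 0.96 (adjusted p = 0.000929) in the authors' deposited table and has no 3' UTR in GENCODE 29 to search. The remaining 5 falls are zinc finger genes, described further on.

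Among the 18 falls whose 3' UTR is annotated, 17 (94.4%) held a match to positions 2 to 8, and 13 held an 8mer. None of the 10 rises held such a match, while 21.6% of the 11403 measured genes that were not called did. The fall without one, ZNF45, holds 8 matches in its coding sequence.

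Fold changes were lower the stronger the match, across all measured genes whose 3' UTR could be searched. The median was -0.13 in 1197 genes whose best match was an 8mer, -0.05 in 1283 with a 7mer-m8, -0.01 in 1004 with a 7mer-A1, 0.03 in 1390 with a 6mer and 0.07 in 6557 with none. Of the 8mer genes 74.3% lay below 0, against 34.9% of the genes with no match. At an unadjusted p under 0.05, 13.5% of the 8mer genes lay below 0 and 0.585% above, while of the genes with no match 0.488% lay below 0 and 2.94% above. Set against genes with no match to positions 2 to 8, the 2480 genes with one had a median of -0.08 against 0.05. These are descriptions over genes, which are not independent replicates.

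**Figure D2:**
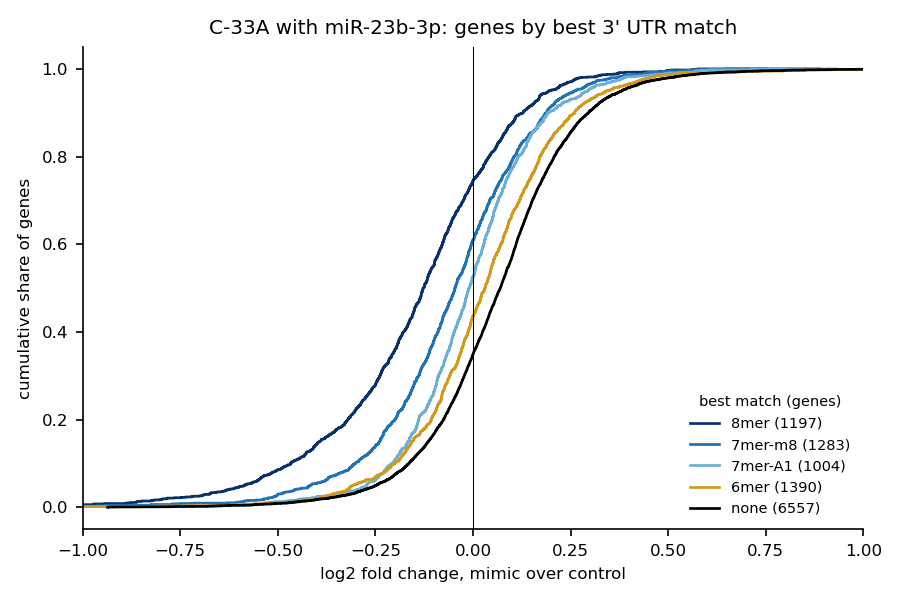
Cumulative share of measured genes (vertical axis) at or below each log2 fold change (horizontal axis, drawn from -1 to 1) in C-33A, by the best miR-23b-3p match in the 3' UTR, with the number of genes in brackets. The 8mer curve lies furthest left (median -0.13) and the curve of genes with no match furthest right (median 0.07).

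Genes with more matches lay lower. The median was -0.06 with 1 match (1884 genes), -0.13 with 2 (434 genes), -0.21 with 3 (114 genes) and -0.21 with 4 or more (48 genes). Longer 3' UTRs hold more matches, so genes were also read within ranges of 3' UTR length: in each of 5 ranges, from under 400 to over 4000 bases, genes with a match had a median between -0.13 and -0.07 and genes without one a median between 0.02 and 0.07. Genes with a single 8mer and no other match to positions 2 to 8 were also read by the site's surroundings. Their median was -0.03 in 80 genes where A and T made up under 50% of the 60 bases around the site. It was -0.08 in 311 genes between 50% and 65%, and -0.13 in 390 genes above that. It was -0.13 where the 8mer began within the first 500 bases of the 3' UTR (242 genes), -0.10 up to base 1500 (258 genes) and -0.07 beyond it (281 genes).

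Matches to the other arm of the hairpin and to the seed of another transfected mimic were sought in the same 3' UTRs. By best miR-218-5p match the medians were -0.01 for an 8mer (546 genes), 0.00 for a 7mer-m8 (1248 genes), -0.01 for a 7mer-A1 (681 genes), 0.03 for a 6mer (1817 genes) and 0.04 for none (7139 genes), with 53.1% of the 8mer genes below 0 and 42.4% of those with none. By best miR-23b-5p match they were 0.04 for an 8mer (363 genes), 0.06 for a 7mer-m8 (570 genes) and 0.0004 for a 7mer-A1 (1015 genes). They were 0.02 for a 6mer (1152 genes) and 0.03 for none (8331 genes). These groups include genes that also hold a miR-23b-3p match. Among genes with no miR-23b-3p match, the median was 0.09 in 656 genes with a miR-23b-5p match, against 0.05 in 8295 genes without one. It was 0.04 in 1105 genes with a miR-218-5p match, against 0.05 in 7846 genes without.

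Matches in coding sequences also went with lower fold changes. Among genes without a 3' UTR match, the median was 0.01 with 1 match in the coding sequence (1066 genes), -0.03 with 2 to 3 (205 genes), -0.18 with 4 to 6 (28 genes) and -0.35 with 7 or more (14 genes), against 0.06 with 0 (7638 genes). Without the zinc finger genes the medians were 0.01 (1016 genes), -0.02 (169 genes), -0.22 (12 genes) and -0.16 (3 genes), against 0.06 (7479 genes), and of the 12 and 3 genes with the most matches 0 lay below 0 at an unadjusted p under 0.05. A match in the 5' UTR alone left the median at 0.06 (79 genes).

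Zinc finger genes held most of the coding sequences with many matches. They code for arrays of C2H2 fingers joined by a conserved linker, and many are KRAB repressors that bind transposable elements. Of the 401 measured genes whose symbol is ZNF and a number, a group chosen after its values were seen and given here as a description, 184 held 689 matches in the coding sequence. Of these matches 92.6% lay in the same reading frame, and 64.2% of the 505 distances between neighbouring matches were multiples of 84 bases, the length that encodes 1 finger with its linker. The repeated word can be seen in ZNF91, at chr19:23362088-23362095 and chr19:23362004-23362011 (minus strand), in ZNF107 at chr7:64706786-64706793 (plus), in ZNF678 at chr1:227655131-227655138 (plus) and in ZNF45 at chr19:43914851-43914858 (minus), all in coding exons (GRCh38, GENCODE 29).
ZNF91 coding site 1: agagaaaccctacaAATGTGAAgaatgtgg
ZNF91 coding site 2: agagaaaccctacaAATGTGAAgaatgtgg
ZNF107 coding site: agaaaagccctacaAATGTGAAgaatgtgg
ZNF678 coding site: agagaaaccctacaAATGTGAAgaatgtgg
ZNF45 coding site: agagaagccctacaAATGTGAAaaatgtga

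The 5 zinc finger genes that fell hold between 8 and 22 of these matches. ZNF91, a KRAB repressor of SVA elements, has 22 and fell by 0.80 in the authors' deposited table (adjusted p = 0.0298). ZNF107 has 19 and fell by 0.82 (adjusted p = 0.0234), and ZNF714 has 16 and fell by 0.85 (adjusted p = 0.0217) in the authors' deposited table. ZNF678 has 9 and fell by 0.77 (adjusted p = 0.0368), and ZNF45 has 8 and fell by 0.79 (adjusted p = 0.0404) in the authors' deposited table. ZNF254 and ZNF681, with 11 and 12 matches, stood just outside the threshold at -0.80 and -1.01 (adjusted p = 0.0731 each) in the authors' deposited table.

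Across the 401 zinc finger genes the median log2 fold change was 0.05 with 0 matches in the coding sequence (217 genes), -0.03 with 1 to 2 (106 genes), -0.09 with 3 to 5 (33 genes), -0.40 with 6 to 9 (27 genes) and -0.67 with 10 or more (18 genes). Of those 18 genes 17 lay below 0, 12 of them at an unadjusted p under 0.05; the exception was ZNF726 at 0.37, with 11 matches. Many of these genes hold 3' UTR matches too, and among those that do not, the median was 0.07 with 0 (159 genes), -0.02 with 1 to 2 (75 genes), -0.15 with 3 to 5 (23 genes), -0.20 with 6 to 9 (12 genes) and -0.42 with 10 or more (3 genes). On chromosome 19, where many zinc finger genes lie in clusters, the medians were -0.39 with 6 to 9 matches (14 genes) and -0.59 with 10 or more (14 genes), against 0.03 with 0 (97 genes). On other chromosomes they were -0.43 (13 genes) and -0.70 (4 genes), against 0.06 (120 genes). Zinc finger genes are near copies of each other, and the treatment of reads that fit several copies is not stated in any source at hand; single genes of the group are uncertain.

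**Figure D3:**
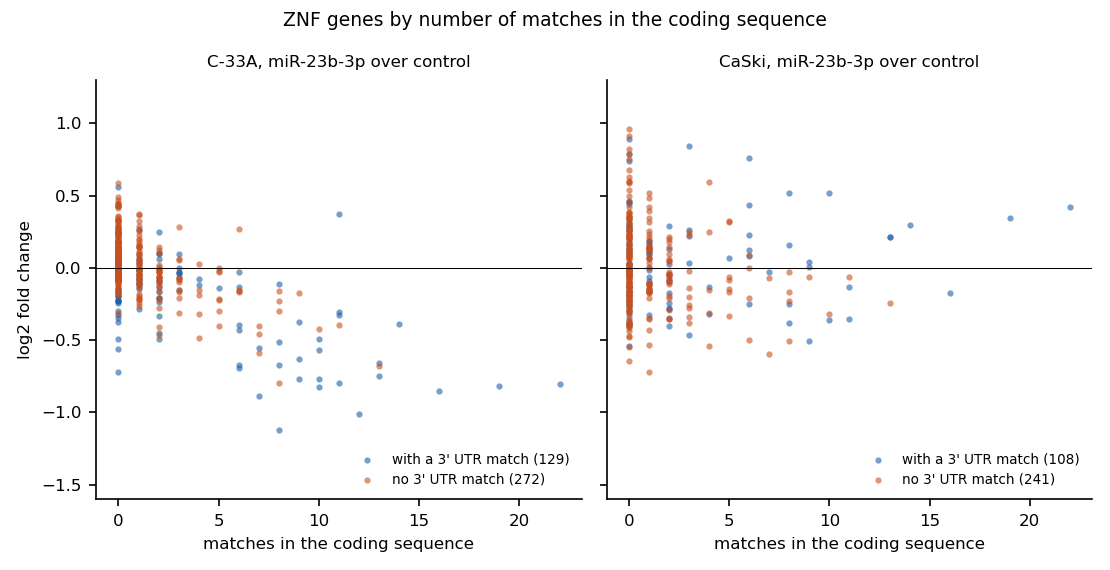
Log2 fold change of zinc finger genes (mimic over control) against the number of miR-23b-3p matches in the coding sequence, in C-33A (left, 401 genes) and CaSki (right, 349 genes), blue with and orange without a 3' UTR match. In C-33A the genes with 10 or more matches have a median of -0.67, and in CaSki of -0.06.

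The same groups did not show this order in CaSki cells with the same mimic. There the median was -0.03 with 6 to 9 matches (25 genes) and -0.06 with 10 or more (13 genes), against -0.01 with 0 (193 genes). Of 38 genes with 6 or more matches measured in both lines, 30 had a lower fold change in C-33A than in CaSki. Of 193 with 0 matches, 85 did. The lower value in C-33A passed an adjusted p of 0.05 for 4 of the 38, ZNF91, ZNF92, ZNF107 and ZNF253. It passed for 1 of the 193. This was a normal test on the recovered errors in which 0.93% of 12905 genes were lower in C-33A. In C-33A with the other mimics, whose comparisons use the same control samples, the genes with 10 or more matches also lay lower. Their median was -0.16 with miR-124-3p, against 0.08 with 0 matches, and -0.23 with miR-218-5p, against 0.002 with 0 matches.

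Of the 10 rises, 6 belong to the list of the integrated stress response. In this pathway kinases that sense stress phosphorylate the initiation factor eIF2; general translation drops while the transcription factor ATF4 is translated more, and ATF4 with its partners turns on genes of amino acid supply, redox balance and cell death. Of 28 measured members of the list 6 rose and 0 fell, against 0.0657% and 0.125% of all measured genes. Their median was 0.47 beside 0.01 over all measured genes. The list was chosen with earlier results of these data known. At an unadjusted p under 0.05, 16 of the 28 lay above 0 and 0 below, against 1.93% above and 2.3% below over all measured genes.

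The transcription factors of the pathway were among its higher members. DDIT3, also called CHOP, rose by 1.03 in the authors' deposited table (95% interval 0.66 to 1.39, adjusted p = 0.000395), a level in mimic-treated cells of 204% of that in control cells. CEBPB, a partner of ATF4 and DDIT3, rose by 0.92 in the authors' deposited table (95% interval 0.57 to 1.27, adjusted p = 0.00133). ATF4 itself stood at 0.57 (95% interval 0.25 to 0.90), ATF3 at 0.99 and JDP2 at 0.92 in the authors' deposited table, and these missed the threshold (adjusted p = 0.41, 0.103 and 0.126).

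Known targets of these factors made up the 4 largest rises. TRIB3, a pseudokinase that feeds back on ATF4, rose by 1.32 in the authors' deposited table (95% interval 0.97 to 1.67, adjusted p = 8.03e-09), 2.5 times the control level. STC2, a secreted stanniocalcin, rose by 1.40 (95% interval 0.95 to 1.85, adjusted p = 1.72e-05), and CHAC1, which cleaves glutathione, by 1.24 (95% interval 0.87 to 1.62, adjusted p = 1.76e-06) in the authors' deposited table. ADM2, a peptide hormone, rose by 1.52 (adjusted p = 0.0368) in the authors' deposited table, at an average log2 CPM of only 1.29 and with a 95% interval of 0.83 to 2.21. The eIF2 kinases upstream lay near 0: EIF2AK1 (HRI) stood at -0.01, EIF2AK2 (PKR) at -0.15, EIF2AK3 (PERK) at 0.13 and EIF2AK4 (GCN2) at -0.01 in the authors' deposited table, and none was called.

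Genes of amino acid supply lay above 0 with few calls. SLC7A11, the cystine transporter, rose by 0.84 in the authors' deposited table (95% interval 0.51 to 1.17, adjusted p = 0.00242), the 1 call among 26 measured members of the list of amino acid synthesis, transport and one-carbon genes. The list's median was 0.36, and 12 members lay above 0 at an unadjusted p under 0.05, as did 1.93% of all measured genes, of which 0.0657% rose. SLC1A4, SLC7A5 and SLC1A5, which import neutral amino acids, stood at 0.74, 0.63 and 0.64 (adjusted p = 0.109, 0.187 and 0.187) in the authors' deposited table. Of 19 aminoacyl-tRNA synthetases 18 lay above 0, with 0 called, a median of 0.20 and 8 above 0 at an unadjusted p under 0.05 (1.93% over all measured genes); GARS1 stood at 0.65 (adjusted p = 0.126) in the authors' deposited table. PCK2, the mitochondrial PEP carboxykinase, rose by 0.85 (adjusted p = 0.0234), and CASTOR2, an arginine sensor homologue of the mTORC1 pathway, by 0.85 (adjusted p = 0.0326) in the authors' deposited table; CASTOR2 has near-identical copies in the genome between which reads may be split.

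Chaperones and sensors of the endoplasmic reticulum, whose unfolded protein response shares the kinase PERK with the pathway above, lay closer to the median of all genes. None of 24 measured members was called, their median was 0.05, and 2 lay above 0 at an unadjusted p under 0.05: HERPUD1, of protein degradation at the endoplasmic reticulum, at 0.67 (adjusted p = 0.341), and XBP1 at 0.37 in the authors' deposited table. HSPA5, the chaperone BiP, stood at 0.26 (95% interval -0.06 to 0.59) in the authors' deposited table. The glutamine and proline list had a median of 0.06 over 16 measured members, with 0 called.

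**Figure D4:**
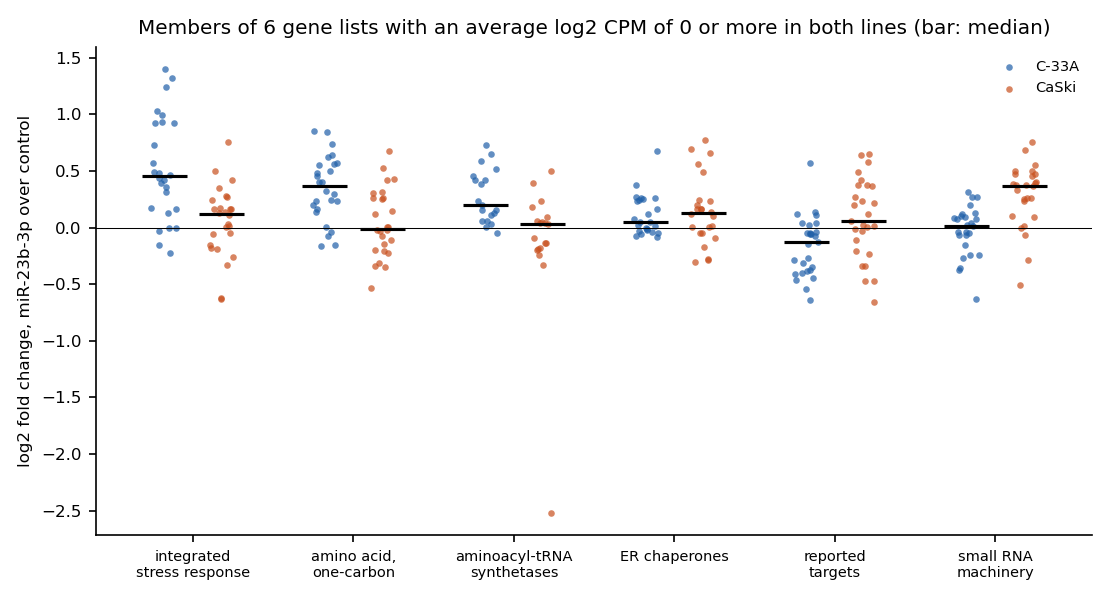
Log2 fold change (mimic over control) of the members of 6 gene lists measured in both lines, in C-33A (blue, left of each pair) and CaSki (orange, right), with bars at the medians. The stress response members have a median of 0.45 in C-33A and 0.12 in CaSki, and the reported targets of -0.13 in C-33A and 0.06 in CaSki.

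The letters TGATGNAA, searched on both strands, form the composite element that C/EBP and ATF4 proteins bind. In promoters of 300 bases (250 before to 50 after the RefSeq start, GRCh38.p14) they occurred in 3.67% of all 27305 promoters and in 1.6% of the 10232 that belong to measured genes. They occurred in 12 of 36 promoters of the amino acid and synthetase lists (33.3%), in 3 of 25 of the stress response list, in 1 of 8 of the rises and in 0 of 17 of the falls. A match is a description of these windows and not a site. Below are some of the 30-base windows, written along the gene, with the match in capitals. A match on the other strand reads TTNCATCA. The genes shown stood at 1.24 (CHAC1), 0.99 (ATF3), 0.73 (CARS1), 0.52 (MARS1), 0.50 (ASNS) and 0.45 (AARS1), and only CHAC1 was called. Of the matched windows not shown, those of FGF21 and SLC3A2 belong to genes at 0.84 and 0.57. The rest belong to genes between 0.14 (BCAT1) and 0.38 (TARS1). They lie at chr15:40953251-40953280 for CHAC1 (plus strand), chr1:212565205-212565234 for ATF3 (plus), chr11:3057407-3057436 for CARS1 (minus), chr12:57488053-57488082 for MARS1 (plus), chr7:97872458-97872487 for ASNS (minus) and chr16:70289675-70289704 for AARS1 (minus).
CHAC1: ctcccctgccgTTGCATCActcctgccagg
ATF3: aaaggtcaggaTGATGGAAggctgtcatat
CARS1: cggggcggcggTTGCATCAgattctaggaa
MARS1: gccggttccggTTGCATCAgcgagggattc
ASNS: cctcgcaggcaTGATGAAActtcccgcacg
AARS1: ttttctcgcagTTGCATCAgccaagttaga

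CCND3, a D-type cyclin that drives entry into S phase, rose by 1.02 in the authors' deposited table (95% interval 0.58 to 1.46, adjusted p = 0.0217). It was the 1 call among 29 measured genes of the G1/S list, whose median was 0.10, while 0.0657% of all measured genes rose. E2F2, a transcription factor of the same step, stood at 0.63 (adjusted p = 0.187) in the authors' deposited table. Of 35 measured genes of G2/M and the spindle, 34 lay above 0 (52.4% of all measured genes), with a median of 0.19 and 0 called; 5 lay above 0 at an unadjusted p under 0.05 (1.93% of all measured genes), the lowest p being that of MKI67 at 0.38 (adjusted p = 1) in the authors' deposited table.

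Targets reported for miR-23b-3p lay mostly below 0 without passing the threshold. Of 27 measured members 20 lay below 0 (47.6% of all measured genes) and 0 were called, with a median of -0.13, and of -0.08 with a minimum log2 CPM of 2. In this list 24 genes hold a 3' UTR match. Of all measured genes with a match to positions 2 to 8, 67.3% lay below 0 (median -0.08), and of those with an 8mer 74.3% (median -0.13). At an unadjusted p under 0.05, 8 members lay below 0 and 0 above, against 2.3% and 1.93% of all measured genes. Of genes with a match to positions 2 to 8, 8.59% lay below 0 and 0.847% above at that p, and of 8mer genes 13.5% and 0.585%. APAF1, the core of the apoptosome, stood at -0.64 (95% interval -0.98 to -0.30, adjusted p = 0.21), and its 3' UTR holds 3 8mers, in the authors' deposited table and GENCODE 29. CHUK, the IKK-alpha kinase, stood at -0.54 (adjusted p = 0.711) in the authors' deposited table. The kinase MAP3K1 stood at -0.47, the adaptor TAB3 at -0.45, the kinase PAK2 at -0.38, the caspase inhibitor XIAP at -0.38 and the chromatin protein HMGB2 at -0.35 in the authors' deposited table, each with an 8mer and with an adjusted p of 1. In the list of small RNA machinery 0 of 26 were called and the median was 0.02; its lowest member by p, the decapping enzyme DCP2, stood at -0.63 (adjusted p = 0.172) in the authors' deposited table with 3 matches.

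The other lists had 0 members called in either direction. Their medians were 0.09 for p53 targets (19 measured), 0.14 for the BCL2 family (15), -0.05 for TGF-beta and SMAD (27), -0.10 for the interferon response (14 of 30), 0.04 for NF-kB (20), 0.03 for cytosolic ribosomal proteins (31) and 0.13 for the mitochondrially encoded genes (13). Of the further cell type markers, 4 of 9 fibroblast, 1 of 8 leukocyte, 0 of 7 endothelial and 2 of 8 simple epithelial markers were measured. The highest simple epithelial marker had an average log2 CPM of only 0.82. Of all these markers the fibroblast marker COL3A1 was the highest, at an average log2 CPM of 7.19 in the authors' deposited table, with a log2 fold change of -0.07. AOPEP, the host gene of miR-23b, stood at -0.06 (average log2 CPM 3.68) in the authors' deposited table, while the hairpin genes MIR23B, MIR27B and MIR24-1 had an average log2 CPM under 0, so the mimic itself is not measured by these libraries.

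The calls were then set beside those of CaSki with the same mimic. Of the 19 genes that fell in C-33A, 7 also fell in CaSki (36.8% of the C-33A falls and 1.15% of the 609 CaSki falls). Falls made up 0.995% of all 61217 genes listed for CaSki. Of these listed genes 22686 had no reads there and 15476 were measured, so 0.995% is not the share of measured genes. DDAH1 fell by 0.97 in C-33A and by 1.07 in CaSki, and SEC23A by 0.86 in both, in the authors' deposited tables. B4GAT1 fell by 0.99 in C-33A and 0.97 in CaSki, and SMS by 0.88 in C-33A and 0.70 in CaSki, in the authors' deposited tables. EIF4EBP2, ZNF45 and MSMO1 were the other shared falls, at -0.87, -0.79 and -0.72 in C-33A and at -0.52, -0.51 and -0.44 in CaSki in the authors' deposited tables. Of 18 C-33A falls measured in CaSki, 13 lay below 0 there. Of the 10 C-33A rises 9 were measured in CaSki: 0 were called as risen there, and 4 lay above 0. Of all 61217 listed genes, measured or not, 1.41% were called as risen in CaSki. The difference between the lines itself passed its test for 7 of the rises and 3 of the falls.

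**Figure D5:**
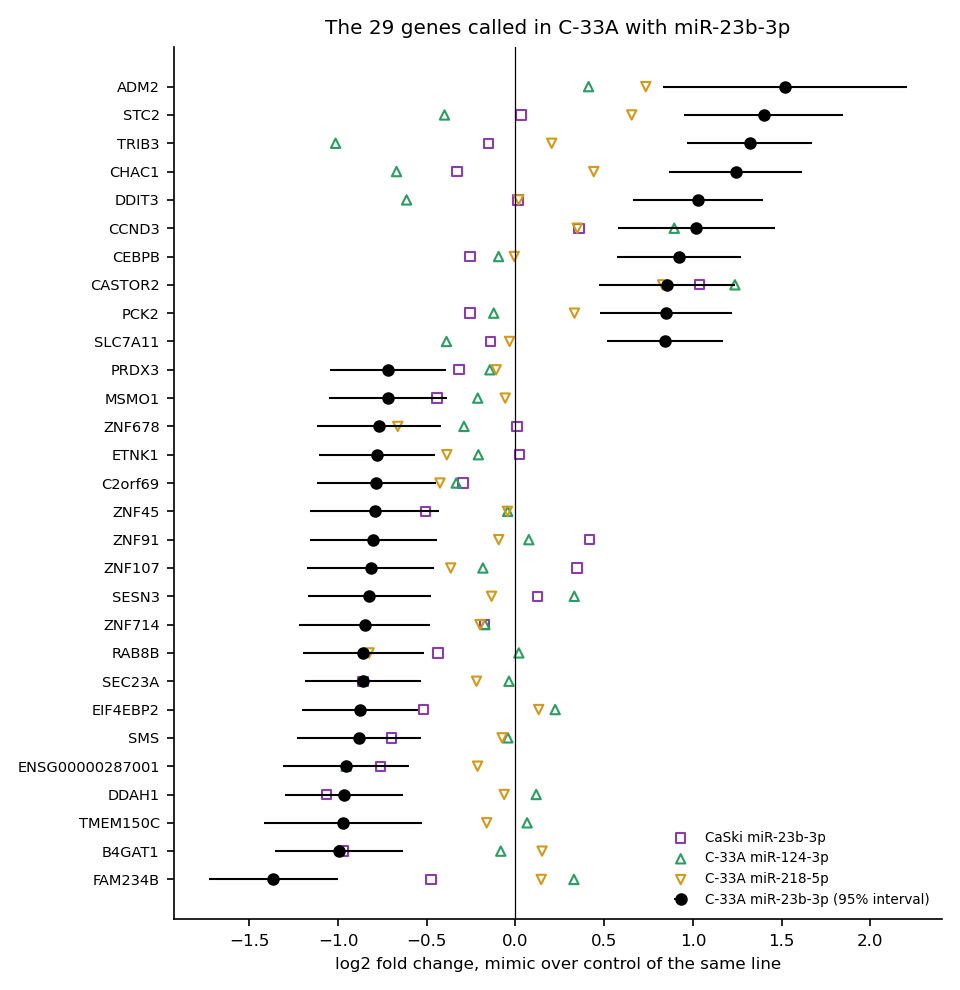
Log2 fold change (mimic over control of the same line) of the 29 genes called in C-33A with miR-23b-3p: filled circles with 95% intervals for that comparison, open symbols for CaSki given miR-23b-3p and C-33A given either other mimic, where the gene was measured. CASTOR2 lies above 0 in all 4 comparisons, and TRIB3 lies at 1.32 in C-33A with miR-23b-3p and at -1.01 with miR-124-3p.

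The difference between the lines was tested gene by gene. It passed an adjusted p of 0.05 for 220 of 12905 genes measured in both, 100 higher in C-33A (0.775%) and 120 lower (0.93%), and 2016 differed at an unadjusted p under 0.05. The stress response list held 8 members higher in C-33A and 0 lower, out of 26 tested. The log2 fold change of TRIB3 was higher in C-33A by 1.47 (SE 0.242, adjusted p = 1.63e-05), that of CHAC1 by 1.57 (SE 0.309, adjusted p = 0.000748) and that of STC2 by 1.37 (SE 0.294, adjusted p = 0.0036). ATF4 stood at 0.57 in C-33A and fell by 0.63 in CaSki in the authors' deposited tables, a difference of 1.2 (SE 0.205, adjusted p = 3.55e-05). JDP2 stood at 0.92 in C-33A and fell by 0.63 in CaSki in the authors' deposited tables, a difference of 1.55 (SE 0.270, adjusted p = 4.32e-05). CEBPB differed by 1.18 (SE 0.219, adjusted p = 0.000231), and the pseudogene HNRNPA3P10, of a family with many near copies, by -3.66 (SE 0.687, adjusted p = 0.000262).

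Technical measures differed between the tables of the lines. In CaSki the median log2 fold change moved with transcript length, from -0.40 under 1000 bases to 0.28 over 8000 bases, while in C-33A it was 0.05 and -0.01 in the same ranges. Cytosolic ribosomal protein genes had a median of 0.03 in C-33A with 0 of 31 called, and of -0.45 in CaSki with 21 fallen. The 13 mitochondrially encoded genes had a median of 0.13 in C-33A and of 1.48 in CaSki, with 0 called in either line. The CaSki table also carries single-read values of 5 libraries, where the labels list 6 samples, and its errors rest on 38.2 denominator degrees of freedom, against 244868 in C-33A. The part of these measures in the differences between the lines was not tested.

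Within C-33A the 3 mimics share the control samples, so values are given side by side. The difference from miR-124-3p passed for 58 of 15123 genes, 50 higher with miR-23b-3p (0.331%) and 8 lower (0.0529%); with the error reduced for the shared control it passed for 364. TRIB3 rose by 1.32 with miR-23b-3p and fell by 1.01 with miR-124-3p in the authors' deposited tables, a difference of 2.33 (SE 0.283, adjusted p = 2.36e-12). FAM234B differed by -1.69 (SE 0.256, adjusted p = 3.00e-07), CHAC1 by 1.91 (SE 0.299, adjusted p = 8.10e-07) and the sialomucin CD164 by 1.46 (SE 0.241, adjusted p = 4.94e-06). The SNARE protein VAMP3 differed by 1.46 and ATL3, of endoplasmic reticulum tubules, by 1.45 (adjusted p = 5.95e-06 each); CD164, VAMP3 and ATL3 fell with miR-124-3p by 1.5, 1.33 and 1.45 and stood at -0.04, 0.13 and 0.00 with miR-23b-3p in the authors' deposited tables.

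The difference from miR-218-5p passed for 8 of 15082 genes, 4 in each direction (0.0265% each), and 327 differed at an unadjusted p under 0.05; with the error reduced for the shared control it passed for 120. FAM234B was lower with miR-23b-3p by 1.51 (difference -1.51, SE 0.248, adjusted p = 1.66e-05), and B4GAT1 (-1.14, SE 0.247, adjusted p = 0.0164) and EIF4EBP2 (-1.01, SE 0.232, adjusted p = 0.0377) were lower as well. TRIB3 was higher by 1.12 (SE 0.254, adjusted p = 0.033), and BIRC5, the inhibitor of apoptosis survivin, by 1.13 (SE 0.232, adjusted p = 0.00918), having fallen by 0.87 with miR-218-5p in the authors' deposited table. RNF6, a ubiquitin ligase, was higher by 1.09 (SE 0.238, adjusted p = 0.0164).

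A few calls recurred across mimics. CASTOR2 rose by 0.85 with miR-23b-3p, by 1.24 with miR-124-3p and by 0.83 with miR-218-5p, and stood at 1.04 (adjusted p = 0.434) in CaSki with miR-23b-3p, in the authors' deposited tables. RAB8B fell by 0.86 with miR-23b-3p and by 0.83 with miR-218-5p, and ENSG00000287001 fell by 0.96 with miR-23b-3p and by 0.95 with miR-124-3p, in the authors' deposited tables. With miR-124-3p 0.131% of all 61217 listed genes fell and 0.031% rose, and with miR-218-5p 0.0686% fell and 0.00653% rose. These comparisons share their 3 control samples with that of miR-23b-3p.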

How the data were processed

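PolyA RNA was sequenced on an Illumina platform, per the labels' protocols. Quality was checked with FastQC 0.73; STAR 2.7.10b, featureCounts 2.0.3 and, for the tests, edgeR 3.36.0 are named in the submitters' processing notes, with GRCh38 (hg38) as the build. Each deposited table holds, per the file headers, for 61217 genes a log2 fold change and an average log2 CPM (both log2 values made by the authors), the F score of the test, its p-value and its FDR. Recomputing the Benjamini-Hochberg adjustment over the 61217 p-values gave the FDR as deposited. Single samples have no values in these tables, so their depth is unknown. The log2 CPM of genes without reads, -3.60 in C-33A with miR-23b-3p, corresponds to a mean library of 24212700 counted reads if edgeR's default prior count of 2 was used, and single-read genes take 6 distinct levels, 3 above and 3 below 0, as 3 mimic and 3 control libraries give.

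Standard errors (SE) were recovered as the log2 fold change over the normal quantile of the deposited p-value; 95% intervals are from these. The 244868 denominator degrees of freedom recovered in C-33A equal 4 for each listed gene, so these p-values and SEs rest on a spread pooled over genes, not on that of each gene. Differences between lines or mimics were tested as normal with SEs added in quadrature, over genes whose average log2 CPM was at least 0 in both, adjusted by Benjamini-Hochberg. For 2 mimics this ignores the shared control, which makes the SE too large.

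Matches were sought in the longest protein coding transcript of GENCODE 29, in 3' UTRs of at least 8 bases. Of 435 listed symbols, 435 were in the tables. The genes, gene lists and sites described were chosen with earlier results of these data known. Named genes are all called genes, up to 4 members with the lowest p per list, up to 8 reported targets, up to 6 genes that differ most between lines or mimics, the genes called in both lines, and the genes of the miR-23b locus. Genes outside this rule (the eIF2 kinases, HSPA5, COL3A1, ATF3, CARS1, ASNS, FGF21, SLC3A2, TARS1, BCAT1, the zinc finger genes near the threshold, ZNF726, ZNF92 and ZNF253) were chosen after their values were seen, some for their role. Steps were tested on simulated data. Python 3.11.15, pandas 2.3.3, numpy 2.4.6, scipy 1.17.1 and matplotlib 3.10.9 were used. Thresholds, expression minimums, 3' UTR choices and SE formulas were varied.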

Additional observations from a re-analysis of the deposited data

Results flagged for a closer look

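The log2 fold change with miR-23b-3p differed between C-33A and CaSki, by the normal test of the difference on recovered errors, for 220 genes in all. A difference can come from a change in either line. In CaSki the median fold change moved with transcript length, from -0.40 under 1000 bases to 0.28 over 8000 bases, against 0.05 and -0.01 in C-33A. The part of this in the differences was not tested. Among the genes named, the log2 fold change was higher in C-33A than in CaSki for TRIB3 (difference 1.47), CHAC1 (1.57), STC2 (1.37), DDIT3 (1.01), CEBPB (1.18), ATF4 (1.2), JDP2 (1.55), SLC7A11 (0.98) and PCK2 (1.10). It was also higher for the seryl-tRNA synthetase SARS1 (0.72), the proline enzyme PYCR1 (0.86), the apoptosis effector BAK1 (0.78), its relative BAD (0.80) and the ubiquitin-like protein ISG15 (0.77). It was lower in C-33A for SESN3 (difference -0.95), ZNF107 (-1.16), ZNF91 (-1.22), PAK2 (-0.76), DCP2 (-0.73), the deadenylase CNOT6L (-1.04) and HNRNPA3P10 (-3.66). Of these, ATF4, JDP2, SARS1, PYCR1, BAK1, BAD, ISG15, PAK2, DCP2, CNOT6L and HNRNPA3P10 were not called in C-33A itself.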

How the results depend on the processing

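No paired analysis was possible because the deposited tables used here hold no values per sample, and for the same reason leaving out each replicate was not run. The 19 falls and 10 rises became 8 and 6 at an FDR of 0.01. They became 37 and 23 when p-values were adjusted over genes whose average log2 CPM was at least 0, and 40 and 22 over those at 2 or above; the cause is the smaller number of genes tested. All 29 called genes kept their call with fold changes recentred on the median of genes at a log2 CPM of 2 or above, which is 0.03. Recentring lowered every fold change and so moved the 19 falls further from 0, which makes it no test of the falls. For the 10 rises the shift was small beside the median SE of 0.18 of genes at a log2 CPM of 2 or above. At an FDR of 0.10 and in the adjustment over measured genes all 29 kept their call by construction. Over genes at 2 or above 28 kept it, also by construction, and ADM2 was not among the genes tested. A looser threshold or fewer tested genes could not remove the call of a gene still tested, so these settings do not test the calls. The median of genes with a 3' UTR match minus that of genes without one was -0.14, and between -0.17 and -0.10 under 5 other definitions, 1 of them (the transcript with the longest coding sequence) added after seeing the data. For zinc finger genes with 6 or more against 0 coding matches the difference was -0.54, and -0.49, -0.55 and -0.37 under 3 alternatives added after seeing the data. With a minimum log2 CPM of 2, 18 list medians shifted by between -0.02 and 0.06 and 0 changed sign; those of the reported targets became -0.0773 in place of -0.13 and of the fibroblast markers -0.0793 in place of -0.14, and the stress response list had 5 called members in place of 6, since ADM2 lies under that minimum. The 220 genes that differ between lines became 419 with errors from the F score. The 58 and 8 that differ between mimics became 364 and 120 with errors reduced for the shared control. In these settings the cause is the smaller error by construction. With both lines recentred 246 genes differed between lines, among them 202 of the 220. With a minimum log2 CPM of 2 in both lines 253 differed, among them 201 of the 220. With no values per sample, errors of single genes rest on the pooled spread, and low genes such as ADM2 are the least certain.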
